A study of Homo sapiens with 12 samples.

Results

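RBM3 and CIRBP, the cold-inducible RNA-binding genes of the glycine-rich family, were followed through 12 RNA-seq libraries of HEK293T, an established human embryonic kidney cell line. They were taken by gene symbol and are 2 of 41878 gene rows in the deposited count table. Both passed the filter on low counts that left 18030 genes for testing. The pair had been picked on how RBM3 differed between starved and fed replicates of these same libraries, so every starved against fed value of RBM3 and CIRBP below is a description with no test.

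Cells in all groups were transiently transfected with 1 µg of plasmid. The vector fed group received the control vector and was kept in 10% serum, and the vector starved group received the same vector and had no serum for 4 h. The TRPML3 fed and TRPML3 starved groups received a plasmid for TRPML3, the endolysosomal cation channel encoded by MCOLN3, and were kept in the same pair of serum states. Each of the 4 groups had 3 libraries, which the labels call biological replicates, and polyadenylated RNA was sequenced. In such bulk RNA, more expressing cells and more RNA per cell cannot be told apart.

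RBM3 and CIRBP each carry an RNA recognition motif followed by a glycine-rich tail. Mild cooling raises both in many mammalian cells, heat stress generally lowers them, and both have been described to respond to other stresses, hypoxia among them. They bind messenger RNAs and act on their stability, processing and translation. The serum-starvation design asks instead about nutrient and growth factor withdrawal, with and without added TRPML3, and no label names a change of temperature.

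The promoters of both genes are shown because the levels described below are those of their transcripts and the 2 starts differ in sequence. Positions count the first base of the gene as 0, and the windows run from 250 bases before to 50 bases after that base in the RefSeq table for GRCh38.p14, in which both genes were matched. Printed is only the stretch before the first exon base that GENCODE 29 places in each window. For CIRBP this stretch lies within the annotated gene, since some CIRBP transcripts start further upstream. In RBM3, at chrX:48574234-48574448 on the plus strand, capitals mark a 17-base unit, ACCCCATTTCCGGAAAC, present in tandem at -180 and -163.
RBM3: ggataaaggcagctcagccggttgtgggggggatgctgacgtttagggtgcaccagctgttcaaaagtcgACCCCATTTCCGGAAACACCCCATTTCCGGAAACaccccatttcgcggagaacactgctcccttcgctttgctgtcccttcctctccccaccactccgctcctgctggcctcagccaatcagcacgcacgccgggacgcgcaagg
In CIRBP, at chr19:1269082-1269265 on the plus strand, capitals mark GGGCGG, the SP1 box, read on either strand.
CIRBP: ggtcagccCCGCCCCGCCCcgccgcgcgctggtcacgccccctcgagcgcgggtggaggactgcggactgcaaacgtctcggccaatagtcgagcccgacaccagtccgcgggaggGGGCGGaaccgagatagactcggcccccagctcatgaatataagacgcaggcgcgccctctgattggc

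The RBM3 window held 0 matches to GGGCGG and the CIRBP window held 4. The first pair, at -242 and -237, overlap each other on the minus strand, the next lies at -134, and the last, at -52, lies beyond the printed stretch. Of 35116 RefSeq promoter windows of the same length, 45% held the motif at least once and 9.06% held at least 4 matches. TCCCCGCC, the mild cold response element described for CIRBP, was not found on either strand in either window, and 8.52% of all windows held it. No match says only that these letters are not in this window. The tandem repeat in RBM3 was picked out after the sequence was seen. A repeated unit as long, with its copies adjacent or apart, is held by 2.74% of windows. GC content was 59.3% in the RBM3 window and 70.3% in the CIRBP window, against a median of 58.7%.

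The counts refer to gene identifiers ENSG00000102317 for RBM3 and ENSG00000099622 for CIRBP. In GENCODE 29, on GRCh38, RBM3 spans chrX:48574449-48579066 with 11 transcripts and CIRBP spans chr19:1259384-1274880 with 46, both on the plus strand. CIRBP-AS1, on the minus strand at chr19:1267814-1270241, shares 4 exon bases with CIRBP and was counted at 0.463 to 1.64 CPM (the count relative to a library total scaled alike for every library), 75.2 times below CIRBP on average. AC115618.1 and AC115618.2, annotated on the minus strand at RBM3, are not analysed here. The counting is not stated to use strand, so reads in stretches that RBM3 or CIRBP shares with a partner could not be separated.

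Library totals ran from 33101540 to 43700547 counts, so that 3 counts, taken as the detection floor, corresponded to at most 0.0906 CPM. RBM3 had 9197 to 26128 counts per library and CIRBP 1544 to 5212, so counting error is small beside the differences of RBM3 between fed and starved replicates 1 and 2. The smallest plasmid differences of RBM3 given below are of the size of counting error. MCOLN3 checked the plasmid labels: it lay between 9.31 and 18.4 CPM in the 6 vector libraries and between 4929 and 58223 CPM in the 6 TRPML3 libraries. Mitochondrial genes took 1.05% to 5.7% of counts, and that share followed the replicate number rather than the group, highest in replicate 3. Replicate 3 of both fed groups was nearer to the starved libraries than to its own group. Across all tested genes, vector fed replicate 3 had a mean Spearman rho of 0.936 with the other vector fed libraries and 0.951 with vector starved replicates 1 and 2, and TRPML3 fed replicate 3 had 0.935 and 0.945 in the same comparison under TRPML3. Vector fed replicate 2 was also nearer to starved libraries (0.948 against 0.945). The lowest rho with its own group was that of TRPML3 starved replicate 3, at 0.93. That library had 0.932 with TRPML3 fed replicates 1 and 2, so it too was slightly nearer to the other serum state. All 8 HEK293T marker genes averaged at least 1 CPM (summed 692 to 1270 CPM per library), whereas 0 of 12 markers of leukocytes, endothelium, liver, blood and muscle did (summed 0.947 to 3.5 CPM), with HBB at 0 in every library.

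RBM3 was an abundant transcript whose level lay in a low and a high range. In vector fed cells RBM3 was at 253, 238 and 643 CPM in replicates 1, 2 and 3, and after starvation at 507, 511 and 588 CPM. In TRPML3 fed cells RBM3 was at 231, 240 and 577 CPM, and in TRPML3 starved cells at 503, 491 and 566 CPM. Fed replicates 1 and 2 of both plasmids were low, and fed replicate 3 and all 6 starved libraries were high, so the fed and starved groups overlapped under both plasmids.

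**Figure D1:**
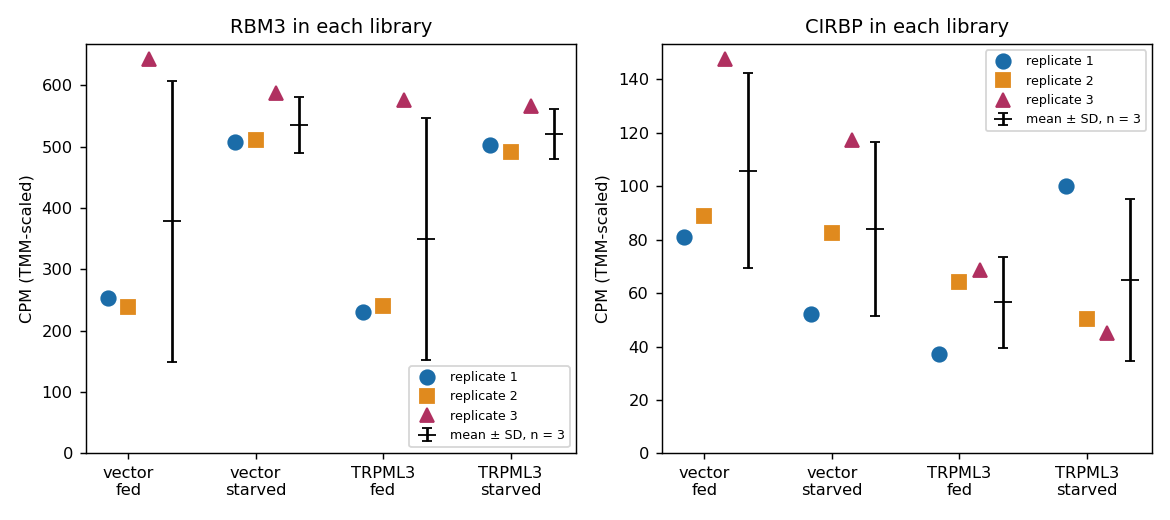
CPM of RBM3 and CIRBP (y axes, linear) in each library by group (x axis), each point 1 library and the bar the mean with SD of 3 libraries. RBM3 sits at 231 to 253 CPM in fed replicates 1 and 2 and at 491 to 643 CPM elsewhere, while CIRBP shows no such gap.

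Ordered from low to high, RBM3 differed by at most 1.11-fold between any library and the next except for 1 step of 1.94-fold, between vector fed replicate 1 at 253 CPM and TRPML3 starved replicate 2 at 491 CPM. The 3 starved libraries of each plasmid lay close together, with 535 ± 45.7 CPM under vector and 520 ± 40.3 CPM under TRPML3 (SD, n = 3). The fed means of RBM3, 378 ± 229 and 349 ± 197 CPM (SD, n = 3), describe no single library, since replicate 3 lay far above the other two in both.

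Replicate numbers serve here only to set fed and starved libraries side by side, and whether they pair the serum states is not settled. Deviations from the group mean correlated at only -0.086 to 0.0093 between same-numbered fed and starved libraries. The mitochondrial share, however, followed the replicate number in both serum states. Within a number, RBM3 was higher in starved than in fed vector cells by 1.00 log2 units of CPM + 1 in replicate 1 and 1.10 in replicate 2, and differed by -0.13 in replicate 3. Under TRPML3 the same differences were 1.12, 1.03 and -0.026. As folds, the first pair of replicates gave 2.00 to 2.18 and replicate 3 gave 0.915 and 0.982. The signs split by replicate number alike under both plasmids, a sign pattern that 8.54% of the 18030 tested genes also showed and whose reverse 8.86% showed. Starved libraries at least 1.5-fold above fed ones in all 4 pairs of replicates 1 and 2 were seen for 2.46% of genes, and for 0.754% with replicate 3 also within 1.5-fold. These shares are background and no support, because the starved and fed values chose RBM3.

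**Figure D2:**
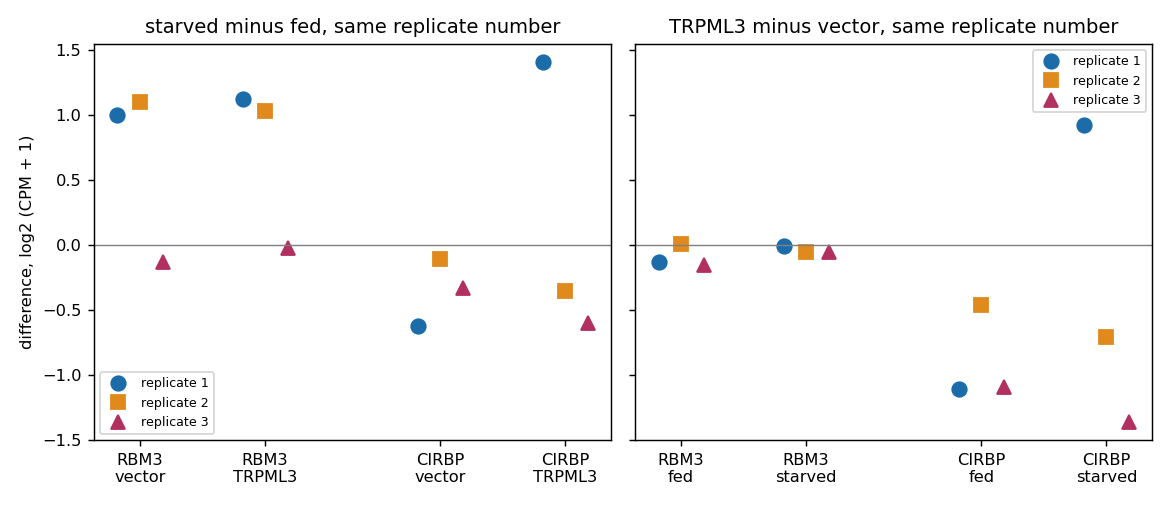
Difference in log2 (CPM + 1) (y axis) between libraries of the same replicate number, starved minus fed by plasmid and TRPML3 minus vector by serum state, for RBM3 and CIRBP, each point 1 pair. For RBM3 the starved minus fed points of replicates 1 and 2 lie at 1.00 to 1.12 and those of replicate 3 at or below 0, and its TRPML3 minus vector points all lie near 0.

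The fit over all 12 libraries gave RBM3 a starved against fed log2 fold change of 0.50 ± 0.42 (SE) under vector, 0.58 ± 0.42 under TRPML3 and 0.54 ± 0.30 averaged over both. Without replicate 3 the average was 1.08 ± 0.074, and without replicate 1 it was 0.34. Neither plasmid's pair of fed and starved groups separated RBM3 completely. Of all genes, 5.36% were higher without overlap in starved vector cells and 5.56% in starved TRPML3 cells.

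RBM3 was not chosen on TRPML3 against vector, but this comparison is not independent of the choice. The replicate pattern that chose RBM3 was read over libraries of both plasmids, which favours small differences between same-numbered libraries. RBM3 did not pass the test in either serum state, and TRPML3 and vector libraries of the same number lay close together. In fed cells the log2 difference was -0.13, 0.0092 and -0.16 in replicates 1, 2 and 3, and in starved cells -0.010, -0.057 and -0.054. The largest of these 6 differences was 1.11-fold. Among the 9156 genes with a mean of at least 10 CPM, 1.39% had a largest plasmid difference as small, and the median was 1.68-fold. For RBM3 this share is background and no support.

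For RBM3, edgeR's quasi-likelihood test gave a log2 fold change of -0.12 ± 0.42 (SE) in fed cells and -0.041 ± 0.42 in starved cells, each with a Benjamini-Hochberg adjusted p of 1. The average over both serum states was -0.078 ± 0.30. Neither RBM3 nor CIRBP was called in any of these 3 contrasts, against a background of 2 genes in fed cells (0.0111% of those tested), 1 in starved cells (0.00555%) and 2 for the average (0.0111%). MCOLN3, the gene on the plasmid, was among the called genes in each contrast, and was the 1 called in starved cells. The interaction, the starvation difference under TRPML3 minus that under vector, was 0.074 ± 0.59 for RBM3 and is given with no test, because it rests on the starved and fed values that chose RBM3. With the replicate number as a block, the counts of called genes became 0 in fed cells, 0 in starved cells and 1 for the average. In that fit RBM3 stayed uncalled, at -0.10 ± 0.28 in fed cells and -0.039 ± 0.28 in starved cells.

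The fitted error of RBM3 was smaller when replicate 3 was left out. Without it, the plasmid effect on RBM3 was -0.053 ± 0.10 in fed and -0.031 ± 0.10 in starved cells. Leaving out single fed libraries of replicate 3 moved and turned the value in fed cells: it was 0.51 without vector fed replicate 3 and -0.68 without TRPML3 fed replicate 3, with an adjusted p of 1 in both. A p that misses the threshold does not show that RBM3 was alike in both plasmids.

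**Figure D3:**
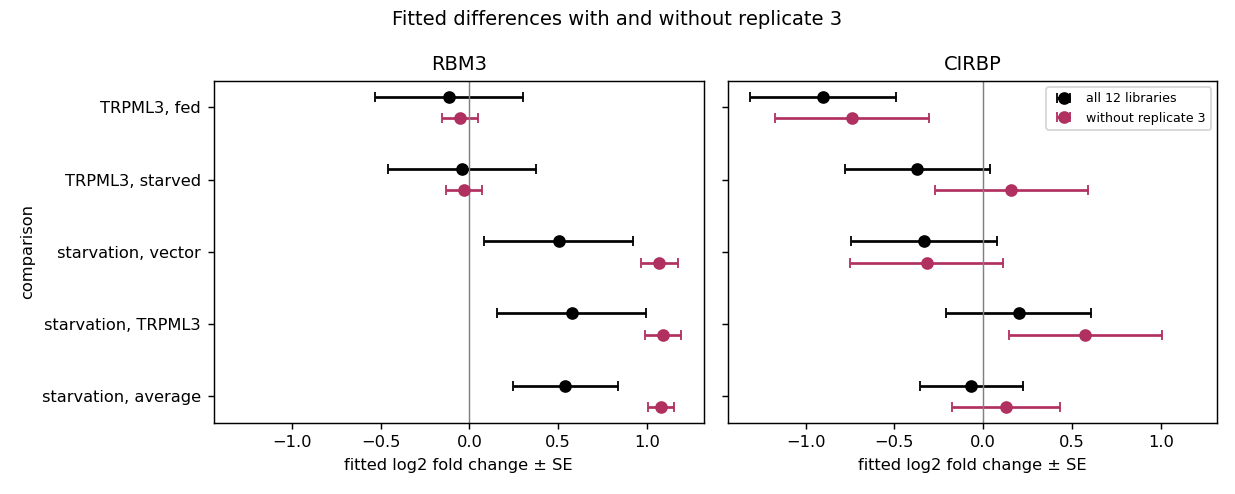
Fitted log2 fold change of RBM3 and CIRBP (x axis, bars are SE) for each contrast, with all 12 libraries and without replicate 3. The bars of RBM3 shrink from 0.42 to 0.10 for the plasmid contrasts when replicate 3 is left out, and its average starvation value moves from 0.54 to 1.08.

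In the 6 TRPML3 libraries the level of RBM3 also ran with that of MCOLN3 itself, with a Pearson r of 0.87 on log2 (CPM + 1), since MCOLN3 was lowest in fed replicates 1 and 2, at 6211 and 4929 CPM, where RBM3 was low too. Over all 12 libraries r was 0.051. The vector libraries, with MCOLN3 at 18.4 CPM or less, showed the same low and high RBM3 libraries. RBM3 had an r of 0.38 with the mitochondrial share and -0.17 with the library total over 12 libraries. All these values share the same libraries and their composition, and the part of any of them in the RBM3 level was not tested.

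CIRBP was less abundant and followed another order. In vector fed cells CIRBP was at 81.0, 89.0 and 148 CPM in replicates 1, 2 and 3, and in vector starved cells at 52.3, 82.5 and 117 CPM. In TRPML3 fed cells it was at 37.1, 64.3 and 68.5 CPM, and in TRPML3 starved cells at 99.99, 50.2 and 44.9 CPM. Replicate 3 was the highest of both vector groups, and replicate 1 was far above the other two in TRPML3 starved cells. No step between neighbours in the order exceeded 1.26-fold, so no library was set apart in CIRBP as in RBM3.

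With the vector, CIRBP averaged 106 ± 36.4 CPM when fed and 84.0 ± 32.6 CPM when starved (SD, n = 3). With TRPML3 it averaged 56.6 ± 17.1 CPM when fed and 65.0 ± 30.4 CPM when starved (SD, n = 3). Starved minus fed differences of CIRBP in log2 were -0.62, -0.11 and -0.33 under vector and 1.41, -0.35 and -0.60 under TRPML3. CIRBP was thus lower in 5 of these 6 side-by-side differences, which are not known to be pairs, and replicate 1 under TRPML3 was the exception. The fitted averages were -0.33 ± 0.41 (SE) under vector, 0.20 ± 0.41 under TRPML3 and -0.067 ± 0.29 over both. Without TRPML3 starved replicate 1 the value under TRPML3 turned to -0.25, and without replicate 3 the average turned to 0.13.

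CIRBP was lower with TRPML3 in 5 of 6 same-numbered pairs, a count that RBM3 shared, and the difference of CIRBP did not pass the test. In fed cells the log2 differences were -1.11, -0.46 and -1.10, and every TRPML3 library of CIRBP was below every vector library. Such a lower, non-overlapping fed group was seen for 3.87% of all genes tested. In starved cells the differences were 0.92, -0.71 and -1.37, and the groups overlapped.

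For CIRBP, edgeR gave a log2 fold change of -0.90 ± 0.41 (SE) in fed cells, where p was 0.0517 before and 1 after adjustment, and of -0.37 ± 0.41 in starved cells with an adjusted p of 1. The average was -0.64 ± 0.29, where p was 0.0515 before and 1.0 after adjustment. The interaction, again with no test, was 0.53 ± 0.58. Leaving out replicate 3 turned the starved value to 0.16, leaving out replicate 1 moved it to -1.08, and the fed value stayed below 0 in each of 15 fits with 1 library or 1 replicate number removed. The largest plasmid difference of CIRBP within a replicate number was 2.58-fold, and 73.8% of genes with a mean of at least 10 CPM had one as small or smaller.

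The 2 genes shared little of their pattern. RBM3 and CIRBP had a Pearson r of 0.304 (Spearman rho 0.455) over 12 libraries on log2 (CPM + 1), and 0.132 without replicate 3. By mean level, 1.79% of tested genes were as high as RBM3 or higher, and 16.8% as high as CIRBP or higher. Divided by merged exon length, RBM3 averaged 119 CPM per kilobase and CIRBP 12.2, and the ratio of the 2 within a library ran from 4.57 in vector fed replicate 2 to 21.5 in TRPML3 starved replicate 3. RBMX, the family's X-linked splicing regulator, averaged 115 CPM per kilobase, close to RBM3. Merged exon length joins the exons of all annotated transcripts and can exceed that of any single mRNA. These values and ratios per kilobase depend on that choice of length.

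The genes whose levels were most like that of RBM3 were chosen by r over the 12 libraries, so their values are descriptions and say nothing of shared function. POP1, a protein subunit of RNase P and RNase MRP, came first with r = 0.99. Fed vector libraries held POP1 at 9.42, 11.3 and 70.6 CPM and starved ones at 44.6, 48.4 and 68.3 CPM. With TRPML3 the fed libraries held it at 10.4, 10.2 and 55.5 CPM and the starved ones at 51.2, 42.6 and 45.6 CPM. Fed replicates 1 and 2 were low in POP1 as in RBM3, and every other library was high. Also among the 5 most like RBM3 were BCKDHA, a subunit of the branched-chain keto acid dehydrogenase, with r = 0.973, NFATC2IP with 0.968 and PSMD3, a proteasome regulatory subunit, with 0.964.

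RNF125, a ubiquitin ligase, was the gene most opposed to RBM3, with r = -0.981. With the vector, RNF125 was at 80.3, 80.8 and 46.8 CPM when fed and 49.3, 48.1 and 42.0 CPM when starved. With TRPML3, RNF125 was at 91.3, 85.7 and 42.6 CPM when fed and 45.8, 46.2 and 46.8 CPM when starved. It was thus high where RBM3 was low. ACVR1C, a receptor of the activin family, had r = -0.975. In all, 2.46% of tested genes had an r of at least 0.8 with RBM3 and 3.63% an r of -0.8 or below. By Spearman's rho, 0 of the 5 genes most like RBM3 stayed among the first 5.

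Genes most like CIRBP were of low level. The 5 genes most like CIRBP, with r from 0.861 to 0.888, were IL9R, FAM207BP, KIAA1614, BTBD3-AS1 and ZBTB47-AS1, all with a mean below 3 CPM. IL9R has a near-identical second row in the table, so its value is uncertain. The genes most opposed to CIRBP were KLRK1-AS1 (r = -0.863), CNN1 (-0.859) and PERP (-0.834). An r of at least 0.8 with CIRBP was reached by 0.111% of tested genes.

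**Figure D4:**
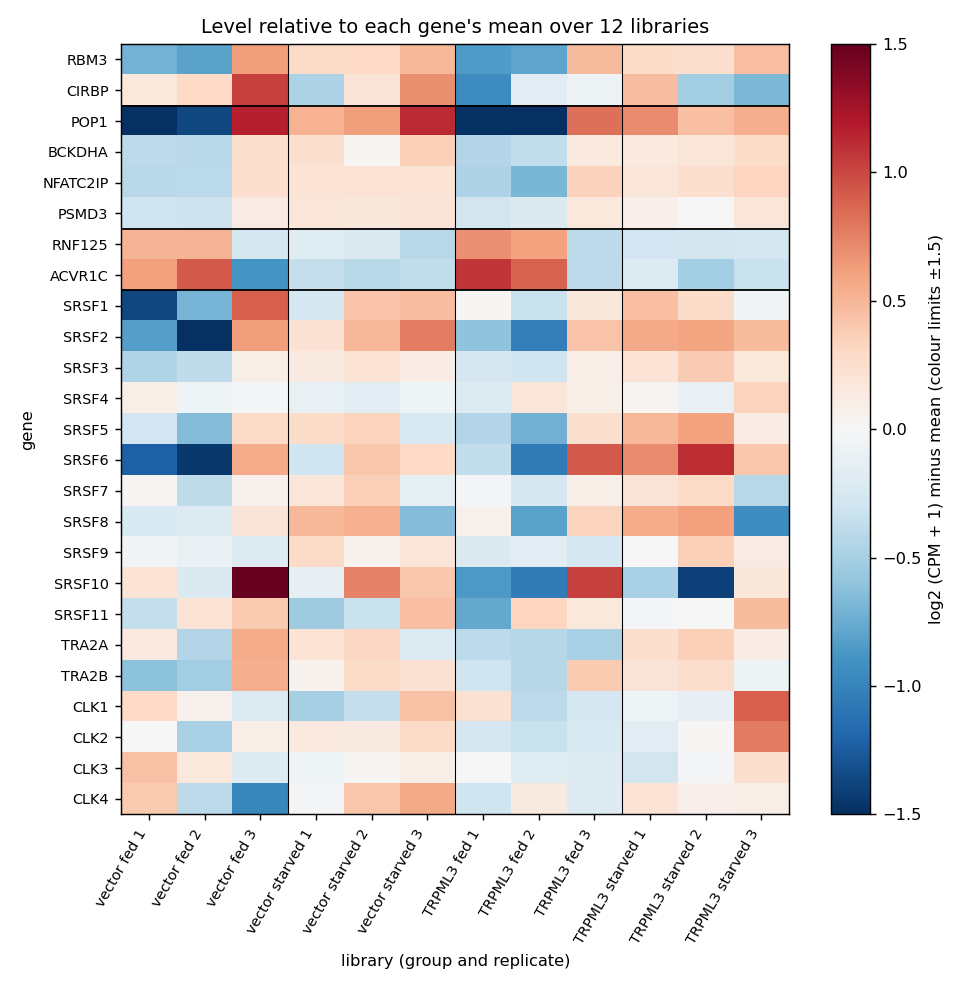
Log2 (CPM + 1) minus the gene's mean over the 12 libraries (colour), in columns by library, for RBM3, CIRBP, 4 of the genes most like and 2 of the least like RBM3, and the 17 SR and CLK splicing genes. RBM3 and the 4 genes like it are low in the 4 fed libraries of replicates 1 and 2, whereas CIRBP is below its mean there with TRPML3 and above it with the vector.

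Gene lists around RBM3 and CIRBP were read by the average starvation effect, in which 0 of 18030 genes were called at an adjusted p under 0.05, 9.45% had an unadjusted p under 0.05 and DESeq2 called 287. The median log2 fold change of all genes was 0.0062. No gene of any list was called by edgeR with all 12 libraries, here or for TRPML3 against vector.

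SR splicing factors are phosphorylated by the CLK kinases, whose activity is known to respond to temperature. Of the 17 genes in this list, 14 were higher in starved cells on average and 3 lower, with a median of 0.29, and 4 reached an unadjusted p under 0.05, all higher, as did 4.66% of all genes. DESeq2 called 1 of the 17, SRSF9, at 0.33 with an adjusted p of 0.0315 (named after its value was seen). An r of at least 0.8 with RBM3 was reached by 5 of 17 (29.4%), against 2.46% of all genes. They were SRSF2 at 0.93, TRA2B at 0.91, SRSF3 at 0.88, SRSF6 at 0.85 and SRSF5 at 0.80. The list was chosen with earlier results of these data known, so these counts and shares are descriptions and no support.

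With the vector, SRSF2 was at 239, 129 and 655 CPM when fed and 494, 598 and 726 CPM when starved. With TRPML3, SRSF2 was at 279, 209 and 569 CPM when fed and 628, 642 and 590.0 CPM when starved. The low and high libraries were those of RBM3. Without replicate 3, where 810 of 18052 genes were called (4.49%), 459 higher (2.54%) and 351 lower (1.94%), edgeR called 5 of the 17: SRSF2 (log2 fold change 1.49, adjusted p 0.0321), SRSF3 (0.59, 0.0259), SRSF5 (0.96, 0.0259), SRSF6 (1.53, 0.0339) and TRA2B (0.67, 0.0297). With all 12 libraries the same fit gave SRSF2 0.82 ± 0.37 (SE, adjusted p 0.52) and SRSF6 0.64 ± 0.41 (0.69), and SRSF10 was the lowest at -0.43 ± 0.48. The 5 genes called without replicate 3 are those named above for their r with RBM3. A gene that tracks RBM3 also differs between fed and starved replicates 1 and 2. The r values and these calls are therefore not separate support, and the same holds for HSPA4L and PTGS2 below. Leaving out replicate 3 also removes the fed libraries of that number, which lay nearer to starved libraries than to their own group. Every call without replicate 3, that of HSPA1B below included, is therefore a description. List calls without replicate 1 or replicate 2 are not given here.

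The heat shock list, on the opposite arm of the temperature response, showed no common direction beside RBM3. Of 20 genes, 9 were higher and 11 lower on average, with a median of -0.014. DNAJA1, a co-chaperone, had a log2 fold change of 0.50 ± 0.15 (SE), HSF1, the heat shock transcription factor, 0.40 ± 0.23, and STIP1 0.39 ± 0.14. HSPA1B was at -0.58 ± 0.22, and its near-identical copy HSPA1A, with which it may share reads, at -0.42 ± 0.72, and HSPA4L at -0.35 ± 0.22. Without replicate 3, HSPA1B fell by 0.87 with an edgeR adjusted p of 0.0259 and HSPA4L fell by 0.73 with 0.0356, 2 of 20 genes where 1.94% of all genes were called lower. HSF2 (-0.89) and HSPA4L (-0.82) had an r of -0.8 or below with RBM3, 2 of 20 (10%) against 3.63% of all genes. Of the 8 HEK293T marker genes, 2 (25%) had such an r as well.

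Of the mRNAs described to be bound by RBM3 or CIRBP, 4 of 7 were higher and 3 lower on average, with a median of 0.076 log2 units. PTGS2, which encodes the prostaglandin synthase COX-2, was at -1.51 ± 0.51 (SE, edgeR adjusted p 0.41) and had an r of -0.93 with RBM3. With the vector, PTGS2 was at 20.6, 22.9 and 2.78 CPM when fed and 6.44, 7.41 and 4.30 CPM when starved, and with TRPML3 at 47.7, 28.7 and 8.41 CPM when fed and 10.4, 7.996 and 8.28 CPM when starved. Fed replicates 1 and 2 held the most PTGS2 under both plasmids. Without replicate 3, PTGS2 fell by 1.84 with an adjusted p of 0.0259. TXN (0.12 ± 0.09), RTN3 (0.076 ± 0.11), CLOCK (0.080 ± 0.44), CXCL8 (0.57 ± 0.45), RPA2 (-0.09 ± 0.44) and VEGFA (-0.21 ± 0.14) did not pass in either fit.

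Of the circadian clock genes, whose transcripts CIRBP is described to bind, 12 of 16 were lower on average, with a median of -0.16. An unadjusted p under 0.05 was reached by 3 of these, as by 4.79% of all genes in that direction. BHLHE40 was at -0.89 ± 0.29, PER1 at -0.84 ± 0.35 and BHLHE41 at -0.79 ± 0.62 (SE), while HLF was highest at 0.26 ± 0.29, with NR1D1 at 0.19 ± 0.23. None was called with or without replicate 3. Cold shock domain proteins, a second family of cold-linked RNA-binding proteins, were higher in 6 of 7 tested genes with a median of 0.15, YBX1 among them at 0.15 ± 0.10, and 0 of 7 reached an unadjusted p under 0.05. Without replicate 3, 4 of 7 were higher and the median was 0.032.

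In the glycine-rich family, RBMX was at 0.14 ± 0.12 and RBMXL1 at -0.24 ± 0.29 (SE), and RBMX ranged from 608 to 863 CPM over all libraries. Among regulators and partners, 2 of 6 were higher and 4 lower, with a median of -0.15. SP1, the factor whose box is repeated in the CIRBP promoter, was at -0.35 ± 0.13 and HNRNPH1 at 0.31 ± 0.16. The r of SP1 was -0.14 with CIRBP and -0.8 with RBM3, whose promoter window lacks the box. A part of SP1 in the level of CIRBP or RBM3 was not tested. The 4 tested temperature-gated TRP channels (TRPA1, TRPV1, TRPV3 and TRPV4), all under 4 CPM in every library, had a median of -0.075 with 0 of 4 higher. Without replicate 3, as with the replicate block, 1 of 4 was higher, and under TRPML3 alone 3 of 4 were higher with a median of 0.11.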

How the data were processed

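RNA-seq of 12 HEK293T libraries was used, grouped by the sample titles. Per the submitters' processing notes, FastQC, fastp, HISAT2, StringTie, DESeq2 and build GRCh38 were used, with no role, order or version; the annotation release, strand use and treatment of shared reads are not given in the sources used here. The authors deposited raw counts per gene, which may be rounded estimates, and a normalized signal, the count divided by 1 size factor per library, used for a check of the counts and for the limma alternative. RBM3, CIRBP and the lists were chosen with earlier results of these data known.

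Counts were tested with edgeR 4.0.16 in R 4.3.3 (TMM, filterByExpr, robust quasi-likelihood fit to 12 libraries, 1 coefficient per group, 8 residual degrees of freedom, Benjamini-Hochberg threshold 0.05 over 18030 genes) and checked on simulated counts. CPM used TMM library sizes, and correlations log2 (CPM + 1). DESeq2 1.42.0, limma 3.58.1, other scalings and filters, a replicate block and left-out libraries were alternatives. Deviations of same-numbered libraries from their group means correlated at 0.11 to 0.36 between plasmids, in all 6 pairs. Between serum states they correlated at -0.086 to 0.0093. The values between plasmids were highest in replicate 3, at 0.36 and 0.32. Deviations within a group cancel out, so a replicate 3 that differs under both plasmids also raises the other values. Whether the numbers pair the plasmids or the serum states is not settled. Genes were named by a rule: RBM3 and CIRBP, MCOLN3, the 5 most and 3 least like each by r, overlapping genes, and in each list those past the threshold or the 3 highest and 3 lowest. P-values set a difference against the spread between these replicates, which was estimated with information shared across genes. Values of some genes that the rule names are not reported here.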

Additional observations from a re-analysis of the deposited data

How the results depend on the processing

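RBM3 and CIRBP kept their direction in every contrast, and stayed uncalled in the plasmid contrasts, under every scaling, filter, tool and block tried with all libraries. Calls over all genes depended on the tool. DESeq2's Wald test called 30, 43 and 29 genes for TRPML3 in fed cells, in starved cells and on average, 43 and 88 for starvation under vector and under TRPML3, 287 for average starvation and 27 for the interaction. The replicate block gave 0, 0 and 1 for TRPML3 and 0 for starvation under vector, and fitting the compared groups alone gave 1, 3 and 0 for TRPML3 in fed cells, in starved cells and starvation under vector.

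Leaving out a library or replicate number gave 0 to 4, 0 to 5 and 0 to 6 called genes for TRPML3 in fed, starved and average, 0 to 2 and 0 to 3 for starvation under vector and TRPML3, 0 to 810 for average starvation (810 without replicate 3) and 0 to 3 for the interaction. RBM3 ranged from -0.68 to 0.51, -0.12 to 0.031 and -0.36 to 0.23 for TRPML3, from 0.26 to 1.12, 0.35 to 1.14 and 0.34 to 1.08 for starvation under vector, TRPML3 and average, and from -0.55 to 0.64 for the interaction. CIRBP ranged from -1.12 to -0.59, -1.08 to 0.16 and -0.96 to -0.29, from -0.65 to -0.017, -0.48 to 0.58 and -0.37 to 0.13, and from -0.23 to 0.90. The cause was not tested. Of the 5 genes most like each, Spearman kept 0 for RBM3 and 3 for CIRBP, unscaled libraries 3 and 5, and left-out replicates 1 to 3 and 0 to 2. RBM3 and CIRBP lay above the detection floor of 3 counts in all 12 libraries.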
